A study of Rattus norvegicus with 16 samples.

Results

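The genes studied here encode the proteins of the mitochondrial ribosome (mitoribosome), and they were taken by name: every gene of the deposited tables whose name begins with Mrpl or Mrps followed by a digit, plus Ptcd3. The rule itself refers to no measured value and gave 68 genes of 17085. The members, Ptcd3 among them, were however chosen with earlier results of these data known. Dap3, Chchd1, Aurkaip1 and Gadd45gip1, other mitoribosome proteins outside the name pattern, were not added. Each of the 68 had counts in every library and was among the 11376 genes with enough counts to be tested. Of the 68, 43 belong to the large subunit, including Mrps30 and Mrps18a, which carry small-subunit names, and 25 to the small subunit. By origin, 41 were assigned a counterpart in bacterial ribosomes and 27 were assigned as specific to mitochondria. These assignments came from general knowledge and were not checked against sequences, so single genes may be misplaced. The rule is sensitive to case, so mrpl9, mrpl11 and mrpl24 were not members.

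The mitoribosome is built in the mitochondrion from proteins that are encoded in the nucleus and imported, and from ribosomal RNA encoded in mitochondrial DNA. It translates only the messages of the mitochondrial genome, which encode core subunits of the respiratory chain and of ATP synthase, so it is known as a requirement for oxidative energy supply in heart muscle. Its proteins line the site of peptide bond formation, the tunnel through which the new peptide leaves, and the entry of the messenger RNA, where Ptcd3, a pentatricopeptide repeat protein of the small subunit, sits.

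RNA of the infarct zone of rat hearts was sequenced in 16 libraries, 4 in each of 4 groups. Sham animals had the control operation, in MI the left anterior descending coronary artery was tied off, and MI_soft and MI_stiff combined this ligation with a hydrogel (a water-rich polymer network) that was soft or stiff, respectively. These treatments are those of the series' design text and the titles; the extraction protocol names MI/R, a term that no title carries, and does not name the gel groups. The labels give the tissue of every group, Sham included, as infarct zone, and they do not give strain, age, sex, gel dose or the time after ligation. Nor do they tie a library to an animal, so the p-values below measure the spread between libraries, part of which may be technical.

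Library totals lay between 10940685 and 14456186 counts. MI 2, MI 3, MI 4 and MI_soft 4 had the lowest detection, with 10470 to 11785 genes that had a count, against 12019 to 12820 in the other 12 libraries. MI_soft 4, at 11785, lay closer to MI_stiff 1, at 12019, than to MI 4, at 11283. Results are given without these 4 libraries below. Leaving them out leaves MI 1 as the only MI library, which is then assumed to vary like the libraries of the other groups. Cardiomyocyte markers fixed for the check (9 of 10 had a row, and all 9 were detected in every group) summed to 73490 to 87080 CPM (counts scaled to a common library total with TMM factors) in Sham, 22170 to 34770 in MI, 29580 to 53190 in MI_soft and 26830 to 34290 in MI_stiff. Fibroblast markers (8 of 8) summed to 2776 to 3578 CPM in Sham and to 11880 to 23040 over the other groups, and macrophage markers (7 of 8) to 137.3 to 173.9 and 459.1 to 5050. These marker sums moved with every comparison against Sham, their part in the results on mitoribosomal genes was not tested, and in bulk tissue fewer cells of a type and less RNA per cell cannot be told apart.

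Together the 68 genes took 0.223% to 0.376% of the counts of a library. Their summed CPM was 3565 ± 414 over the Sham libraries and 2692 ± 353 over the MI libraries, with 2874 ± 685 for MI_soft and 2570 ± 366 for MI_stiff (SD, n = 4 each). Every MI and MI_stiff library was below the lowest Sham library (3160.6 CPM), whereas MI_soft ranged from 2276.6 to 3861.5 and overlapped Sham through MI_soft 4. In summed TPM (abundance per unit of transcript length at a common total) the groups overlapped. It was 3638 ± 628 in Sham and 3198 ± 526 in MI, and MI_soft had 3355 ± 262 and MI_stiff 3340 ± 827. The share of counts, which has neither length scaling nor TMM factors, overlapped too. It was 0.2773% to 0.3759% in Sham, 0.2394% to 0.3036% in MI, 0.2566% to 0.3195% in MI_soft and 0.2231% to 0.3564% in MI_stiff. Apart from rounding, summed CPM and the share of counts differ only by the TMM factors. Sham 2, for example, had 0.2773% and 3651.9 CPM, and MI 1 had 0.2847% and 2284.3 CPM. Mitochondrially encoded genes took from 25.12% of the counts in MI_stiff 4 to 50.48% in Sham 2. Their part in these measures, and that of length in the difference between CPM and TPM, was not tested.

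Levels of different genes can be compared only per length. The mean TPM of a mitoribosomal gene over the 16 libraries ranged 13.9-fold, from 11.48 for Mrps2 to 159.2 for Mrpl33, with a median of 40.96. Mrpl33, Mrpl13 and Mrpl17, all of the large subunit and all with bacterial counterparts, had the highest means, at 159.2, 120.5 and 110.9 TPM. The lowest means, of Mrps2, Mrpl51 and Mrps5, were 11.48, 12.64 and 12.99 TPM. The neighbours in this order did not stand apart. In Sham, for example, Mrps2 had 16.2 ± 3.35 TPM, Mrps5 15.1 ± 3.12 and Mrpl51 20.12 ± 3.72. Mrpl33 was at 136 ± 16.4 in Sham and 208.5 ± 89.2 in MI_stiff, a spread in MI_stiff that is wider than the gap to Sham.

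Most mitoribosomal genes were short. Length was taken from the ratio of counts to TPM, which is proportional to the effective transcript length, and given as a percentile among the tested genes. Of the 68, 62 were shorter than the median gene, 47 lay in the shortest 20% and 28 in the shortest 10%. Ptcd3, Mrpl51 and Mrps2 were the longest, at percentiles 62.7, 61.8 and 60, and Mrpl33, Mrps21 and Mrpl43 the shortest.

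**Figure D1:**
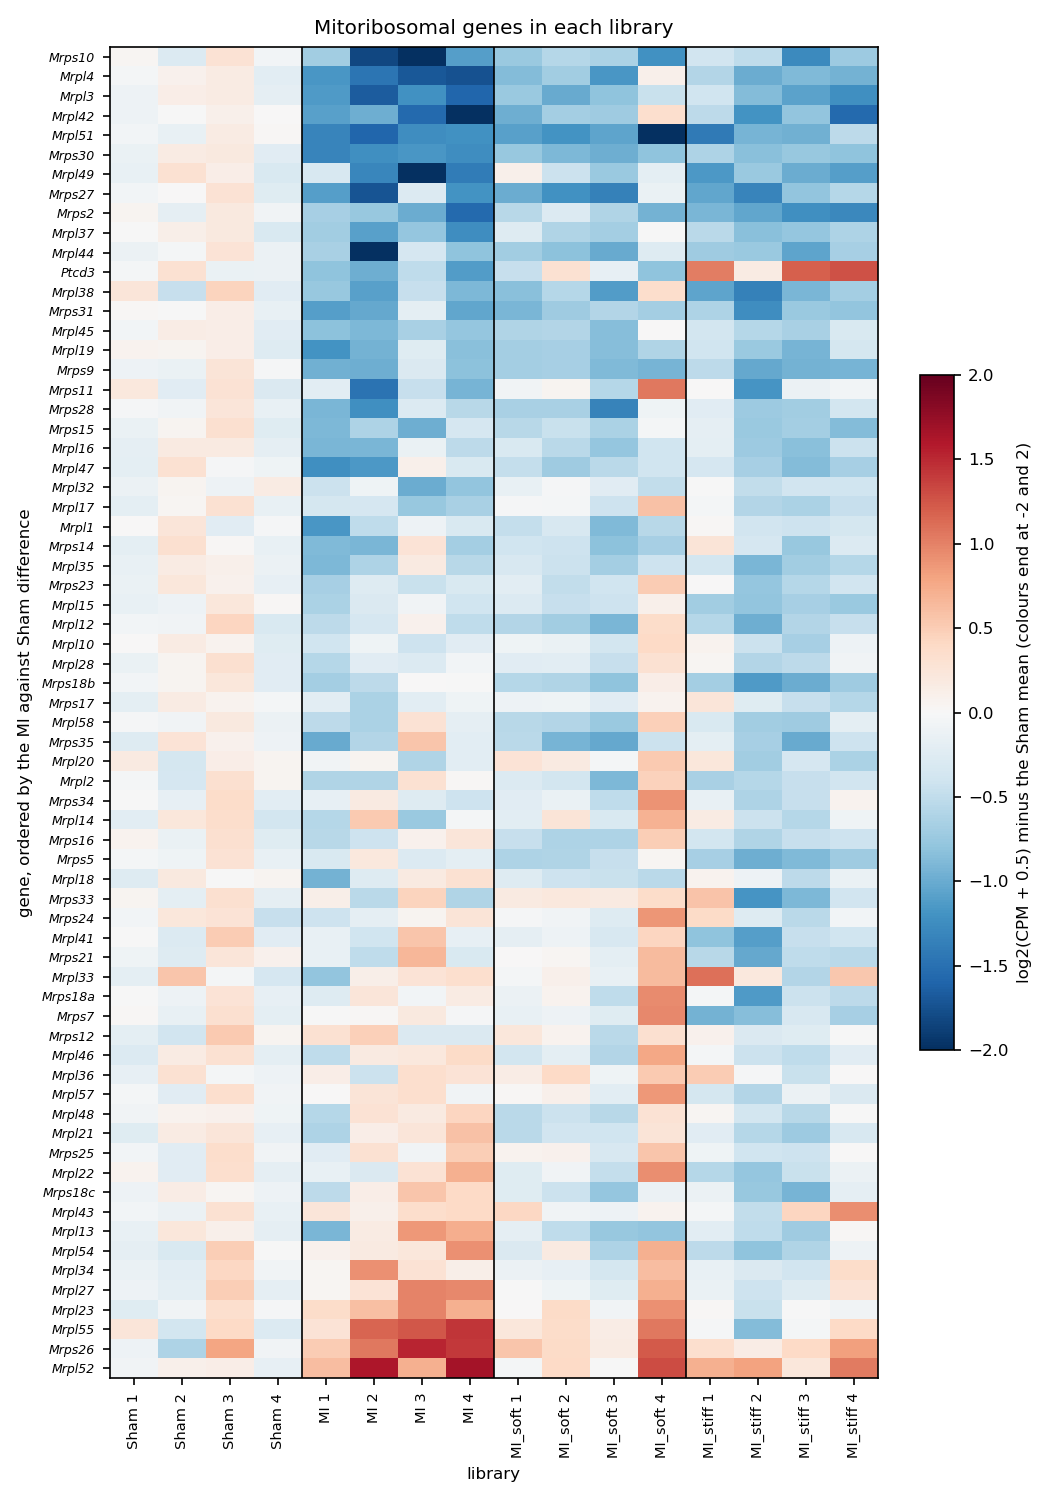
Level of each of the 68 mitoribosomal genes in each of the 16 libraries, as log2(CPM + 0.5) minus the mean of the 4 Sham libraries (colour scale from -2 to 2), with genes ordered by the fitted difference between MI and Sham. The top rows, Mrps10 to Mrps30, are blue in all MI libraries, the bottom rows, Mrpl55, Mrps26 and Mrpl52, are red in MI 2, MI 3 and MI 4, and Ptcd3 is blue in the 4 MI libraries and red in the 4 MI_stiff libraries.

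Promoters are shown for 5 members that the results below turn on, because nuclear factors that bind such sites are known regulators of genes for mitochondrial proteins. RefSeq sequence of the GRCr8 assembly, another build than the rn7 of the counts, was at hand for 55 of the 68 members, as windows of 300 bases from 250 before to 50 after the annotated start. Each line below gives 120 bases before the start and 20 after it, 5′ to 3′ on the strand of the gene, with matches to a motif in capitals.

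Ptcd3, chr4:105507963-105508102, minus strand: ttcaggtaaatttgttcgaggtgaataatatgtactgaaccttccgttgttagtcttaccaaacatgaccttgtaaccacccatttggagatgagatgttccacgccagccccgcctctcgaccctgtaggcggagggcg

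Mrpl3, chr8:114548850-114548989, plus strand: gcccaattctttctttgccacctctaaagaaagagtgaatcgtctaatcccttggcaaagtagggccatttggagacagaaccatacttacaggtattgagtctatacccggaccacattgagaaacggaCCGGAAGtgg

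Mrpl4, chr8:27815651-27815790, plus strand: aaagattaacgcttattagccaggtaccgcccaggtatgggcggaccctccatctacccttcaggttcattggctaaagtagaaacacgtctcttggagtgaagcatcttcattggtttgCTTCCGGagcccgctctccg

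Mrpl37, chr5:127074948-127075087, minus strand: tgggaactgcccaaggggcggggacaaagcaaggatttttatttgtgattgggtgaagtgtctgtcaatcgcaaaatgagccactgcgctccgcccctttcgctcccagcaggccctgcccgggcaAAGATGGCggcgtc

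Mrpl52, chr15:31852816-31852955, plus strand: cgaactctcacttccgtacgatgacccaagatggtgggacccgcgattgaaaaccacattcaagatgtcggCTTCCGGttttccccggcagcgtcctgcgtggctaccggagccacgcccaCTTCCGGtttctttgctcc

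The capitals mark CCGGAAG, the core of ETS family sites such as that of GABP, or its reverse complement in Mrpl3, Mrpl4 and Mrpl52, and GCCATCTT, the core of YY1 sites, on the opposite strand in Mrpl37. The third motif searched, the 12-letter consensus of nuclear respiratory factor 1, is in none of these 5, and Ptcd3 holds none of the 3 in its printed window. Both strands were searched; where an ETS match and a YY1 match on the opposite strand adjoin they can share 3 bases, and each was then counted. In the whole 300-base windows 19 of 55 members (34.5%) held the ETS letters, against 8.75% of 33469 rat promoters of the same length, 13 (23.6%) held the YY1 letters, against 3.17%, and 5 (9.09%) held the nuclear respiratory factor 1 consensus, against 1.24%. At least 1 of the 3 was in 29 members (52.7%), against 12.4% of all promoters. Members were counted once per gene, over 57 windows, and the background once per promoter, whether or not its gene was tested here. No background of tested genes or of other mitochondrial genes was counted, so these shares are not shown to be particular to the members. Divided by the MI against Sham comparison described next, it was in 11 of 16 matched members that were lower, 3 of 4 that were higher and 15 of 35 that were not called. A match to letters is a description and shows no binding.

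The first comparison, MI against Sham, asked how ligation changed the tissue. Of the 68 mitoribosomal genes 20 fell and 4 rose at an adjusted p under 0.05 (edgeR quasi-likelihood test, Benjamini-Hochberg over all tested genes), while of all 11376 genes 16.4% were called lower and 20.2% higher. The falls included the large-subunit proteins Mrps30, Mrpl3, Mrpl4, Mrpl42 and Mrpl51 and the small-subunit proteins Mrps10, Mrps27 and Mrps2. The rises were Mrpl52, Mrps26, Mrpl55 and Mrpl23. The median log2 difference of the 68 was -0.25, against 0.06 for all tested genes, and 47 of the 68 were below 0.

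The smallest p belonged to Mrps30, a large-subunit protein specific to mitochondria. It had 84.3, 103.6, 106.2 and 78.65 CPM in the Sham libraries and 36.67, 39.02, 40.98 and 38.8 in the MI libraries. The 4 MI values were close together, and all of them were below all Sham values. Its log2 difference was -1.26 ± 0.16 (SE of the fit, edgeR adjusted p = 1.43e-05).

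Mrpl3 lies near the site of peptide bond formation, and inherited defects of it are known to cause cardiomyopathy. Its CPM was 160.5, 189.2, 193.3 and 152.8 in Sham and 78.26, 54.09, 74.17 and 57.1 in MI, a log2 difference of -1.40 ± 0.21 (edgeR adjusted p = 7.98e-05). Mrpl4, which lines the peptide exit tunnel, had 156.8, 169.5, 179.9 and 138.4 in Sham and 71.26, 57.69, 49.23 and 47.36 in MI (-1.51 ± 0.24, edgeR adjusted p = 0.000135). For both genes the highest MI library was MI 1, and it was still far below the lowest Sham library.

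Mrpl51 and Mrpl42, both specific to mitochondria, fell by about as much although they differ in length, Mrpl51 at percentile 61.8 and Mrpl42 at 5.01. Mrpl51 had 53.53, 50.02, 62.39 and 56.63 CPM in Sham and 21.81, 18.17, 23.16 and 23.68 in MI (-1.36 ± 0.28, edgeR adjusted p = 0.0014). Mrpl42 had 63.25, 67.42, 73.02 and 67.88 in Sham and 31.64, 34.08, 22.79 and 16.76 in MI (-1.37 ± 0.30, edgeR adjusted p = 0.00197). The groups were apart for both genes.

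In the small subunit the largest fall was that of Mrps10, a short gene at low counts whose product has a bacterial counterpart. It had 7.459, 5.862, 8.924 and 6.891 CPM in Sham and 4.239, 1.675, 0.9377 and 3.096 in MI (-1.54 ± 0.43, edgeR adjusted p = 0.00961). Mrps2, also of bacterial origin, had 44.6, 38.01, 49.74 and 41.11 in Sham and 27.03, 25.45, 21.47 and 14.3 in MI (-0.97 ± 0.22, edgeR adjusted p = 0.00225). Mrps27, a pentatricopeptide repeat protein, had 30.22, 31.58, 38.34 and 26.61 in Sham and 14.31, 9.127, 25.97 and 13.39 in MI (-1.01 ± 0.32, edgeR adjusted p = 0.0198). MI 3 came within 1 CPM of the lowest Sham library for Mrps27, while the groups of Mrps10 and Mrps2 were well apart.

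Among the other falls were Mrpl49 (-1.23 ± 0.35, edgeR adjusted p = 0.0115) and Mrpl37 (-0.95 ± 0.19, edgeR adjusted p = 0.00118), both mitochondria-specific proteins of the large subunit. Mrpl49 overlaps Syvn1 on the genome and Mrpl37 overlaps Ssbp3. Overlap here is between whole genes from start to end, and whether their exons overlap was not examined. The sources used here give no strand setting, so reads from a stretch that both genes transcribe may have been given to either. In all, 14 of the 68 members overlap another gene of the table, among them 3 of the 20 that fell and 1 of the 4 that rose. Ptcd3 fell too, from 78 ± 11.8 to 43.22 ± 8.27 CPM (-0.85 ± 0.26, edgeR adjusted p = 0.0164). The remaining 9 falls lay between -0.60 and -0.93 on the log2 scale and included Mrpl44, whose inherited defects are also known to cause cardiomyopathy, and Mrpl45, which holds the ribosome to the inner membrane.

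The rise of Mrpl52, a mitochondria-specific protein of the large subunit, was carried by part of the MI group. It had 19.5, 22.13, 22.58 and 18.22 CPM in Sham and 31.7, 63.72, 34.04 and 66.12 in MI (1.25 ± 0.32, edgeR adjusted p = 0.00556). All MI libraries were above all Sham libraries, and MI 2 and MI 4 were well above MI 1 and MI 3. Mrps26, of the small subunit, had 13.83, 9.455, 25.92 and 14.1 in Sham and 21.26, 31.48, 43.6 and 40.43 in MI (1.11 ± 0.32, edgeR adjusted p = 0.0117), so MI 1 was below Sham 3. Mrpl55, which overlaps Guk1, also overlapped between the groups, with 11.86 in MI 1 against 12.88 in Sham 3 (1.08 ± 0.33, edgeR adjusted p = 0.0172). Mrpl23, at the mouth of the exit tunnel, was apart, with 27.34 to 42.76 CPM in MI and 17.79 to 26.7 in Sham (0.68 ± 0.24, edgeR adjusted p = 0.0319).

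Without the 4 low-detection libraries, 23 members were called lower and 0 higher, with a median of -0.57, while 27.3% of all genes were called in either direction (36.6% with all libraries) and their median was 0.01. Of the 4 rises the log2 differences were then 0.64 for Mrpl52, 0.44 for Mrps26, 0.27 for Mrpl55 and 0.37 for Mrpl23. Mrps10 (-0.76), Mrps2 (-0.66), Mrpl49 (-0.33), Mrpl38 (-0.80) and Ptcd3 (-0.81) were then no longer called lower, and Mrps30 (-1.33), Mrpl3 (-1.13), Mrpl4 (-1.16), Mrpl42 (-1.08) and Mrpl51 (-1.33) still were.

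**Figure D2:**
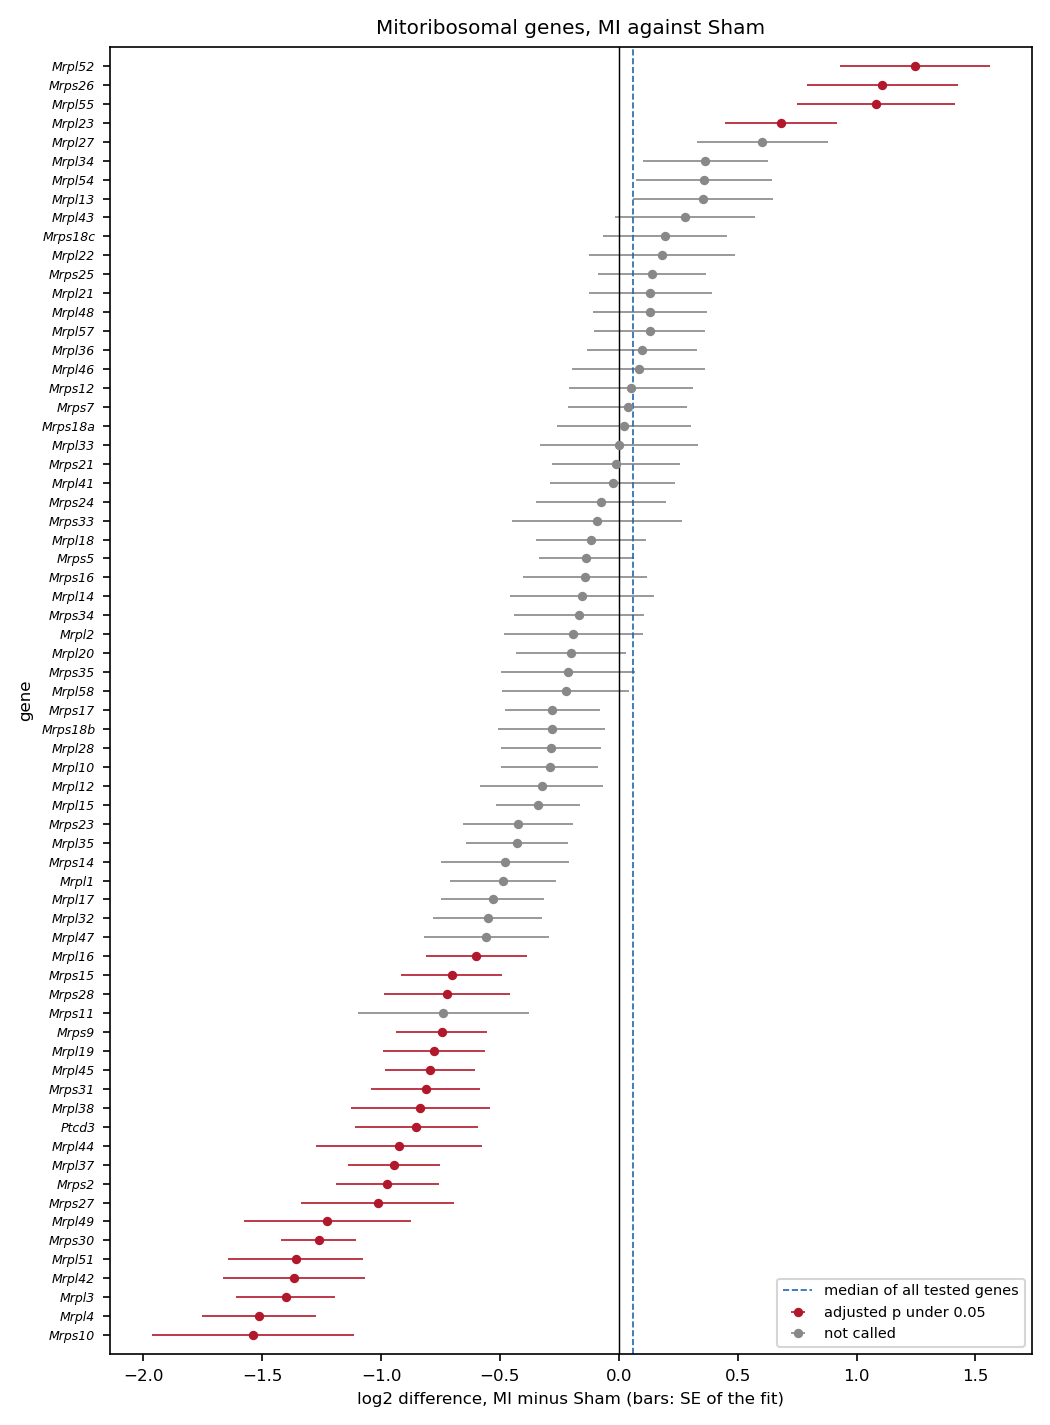
Fitted log2 difference of MI minus Sham for the 68 mitoribosomal genes, ordered by size, with bars of 1 SE of the fit, red for an adjusted p under 0.05 by edgeR. The dashed line is the median of all 11376 tested genes (0.06); 20 red points lie to the left of 0 and 4 to the right.

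By subunit, 12 of 43 large-subunit genes fell and 3 rose (median -0.22), and 8 of 25 small-subunit genes fell and 1 rose (-0.28). By assigned origin, 8 of 41 genes with a bacterial counterpart fell and 1 rose (-0.28), and 12 of 27 mitochondria-specific genes fell and 3 rose (-0.22). Mrpl55 was counted among these 3 rises. A wrong assignment of a called gene would move these counts. The medians of these groups were within 0.06 of each other, and the difference in counts was not tested. Of the 68 members 19 had all MI libraries below all Sham libraries and 2 had all above, against 20.3% and 17.7% of all tested genes.

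The counts were also taken by length, because the median difference of all tested genes fell from 0.35 in the shortest 10% to -0.19 in the longest 10%. Among the 23 shortest members 4 fell and 2 rose with a median of 0.00, among the next 22 it was 3 and 2 (-0.18), and among the 23 longest 13 fell and none rose (-0.75). Across the 68 members the Spearman correlation of length with the log2 difference was -0.523, and across the 10592 tested genes with a length it was -0.144. All these points share the same 8 libraries and their depth and base composition, so the correlations are descriptions. The 28 members among the shortest 10% of genes had a median of 0.01.

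A fit in which each library's trend with length was removed by an offset gave 24 falls and 3 rises, with a median of -0.41, against 16.3% lower and 21.6% higher among all genes. Of the 27 members so called, 22 were also called without the offsets, and 59 of the 68 were then below 0. The correlation over the members was then -0.276.

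**Figure D3:**
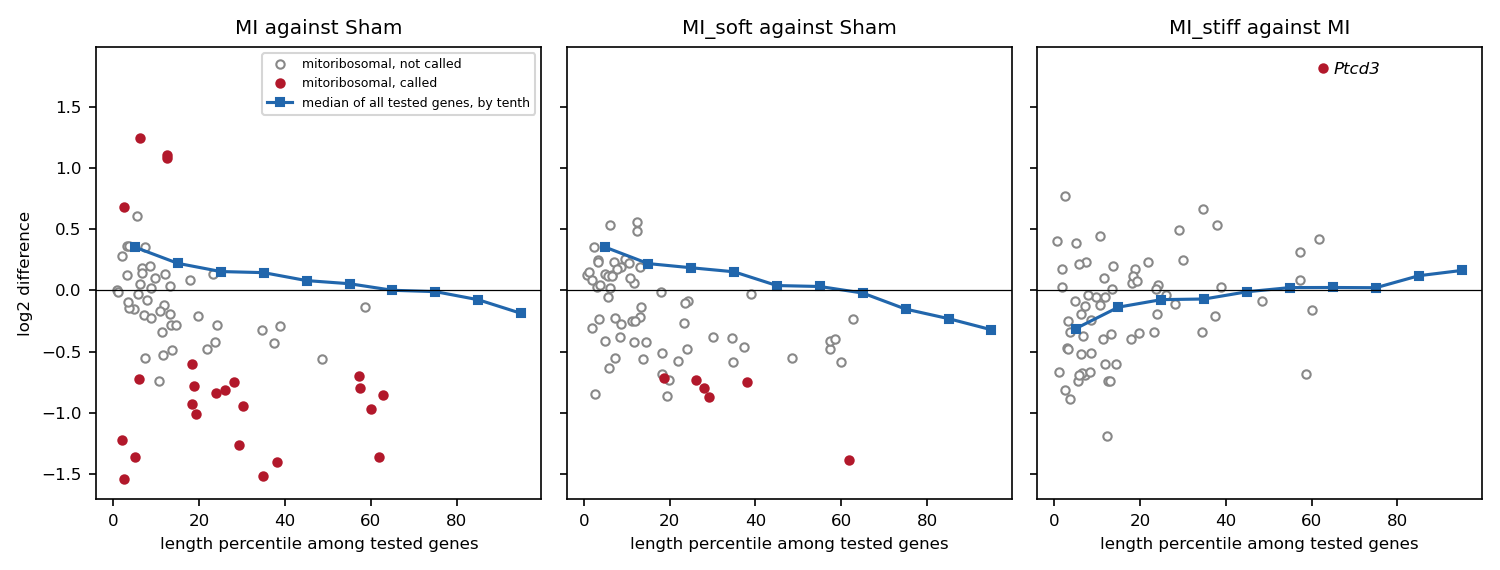
Length percentile of each mitoribosomal gene among the tested genes (horizontal) against its log2 difference (vertical) in 3 comparisons, with called members filled in red and, as blue squares, the median of all tested genes in each 10% of length. In MI and MI_soft against Sham the members lie mostly below the squares and the line falls with length, and in MI_stiff against MI the line rises and Ptcd3 stands alone at the top.

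MI_soft against MI addressed what the soft gel adds to ligation. No mitoribosomal gene passed the test, against 0% of all genes called higher and 0.0264% called lower, so the comparison made few calls anywhere. At an unadjusted p under 0.05 there were 12 members, against 15.5% of all genes, DESeq2 called 2 (both higher), limma-voom 0, limma-voom with library quality weights 2 (both lower), and limma on log2 TPM 0. The median difference was 0.09, against 0.05 for all genes.

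The members with the smallest p were 3 that fell in MI. Mrpl4 had 87.96, 98.43, 71.34 and 171.4 CPM in MI_soft (log2 difference from MI 0.93 ± 0.24, edgeR adjusted p = 0.116). Mrpl42 had 34.27, 42.33, 41.41 and 85.54 (0.95 ± 0.30, edgeR adjusted p = 0.178), and Mrpl3 had 102.9, 85.96, 99.34 and 126.6 (0.65 ± 0.21, edgeR adjusted p = 0.178). For all 3 genes every MI_soft library was above every MI library, and MI_soft 4 was the highest, at 171.4, 85.54 and 126.6 CPM. The groups nearly touched for Mrpl4, with 71.34 in MI_soft 3 against 71.26 in MI 1. So did those of Mrpl42, with 34.27 in MI_soft 1 against 34.08 in MI 2. Without the low-detection libraries the differences were smaller, at 0.26 for Mrpl4, 0.31 for Mrpl42 and 0.29 for Mrpl3. In all 5 members had MI_soft wholly above MI and none wholly below, against 2.55% and 1.69% of all genes. Without MI 1, 6 members were called, 4 higher and 2 lower, against 13.1% of all genes called in either direction, and the median turned to -0.01. Without MI_soft 4 it was -0.08 and 0 members were called.

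MI_stiff against MI addressed what the stiff gel adds. Of the 68 members only Ptcd3 was called, as higher, against 0.492% of all genes called higher and 0.694% called lower. Ptcd3 had 157.8, 87.05, 177.8 and 188.3 CPM in MI_stiff, 43.86, 39.1, 54.48 and 35.43 in MI, 56.38, 95.54, 69.35 and 44.31 in MI_soft, and 74.98, 95.5, 70.39 and 71.12 in Sham. In 3 of the 4 MI_stiff libraries it was above every library of the other groups, and MI_stiff 2 lay within the range of Sham and MI_soft but above all MI libraries. The difference from MI was 1.82 ± 0.26 on the log2 scale (edgeR adjusted p = 0.00674), the third smallest p among the 11376 genes. Ptcd3 entered the rule by its own name with earlier results of these data known, so this rank is a description.

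This call for Ptcd3 held in all 29 alternatives, in which the log2 difference lay between 1.67 and 2.03 and the adjusted p between 2e-08 and 0.038. The ratio of its counts to TPM, as log2 of the relative length, was 0.34 ± 0.02 in Sham and 0.30 ± 0.06 in MI, with 0.34 ± 0.04 for MI_soft and 0.30 ± 0.02 for MI_stiff, so the groups overlapped in the length that its reads were scaled to. Of the genes taken as its neighbours on the chromosome, none was called in this comparison. Mrpl35, a member itself, differed by -0.21 ± 0.21 (edgeR adjusted p = 0.644). Immt, of the inner membrane organising complex, differed by 0.34 ± 0.16 (edgeR adjusted p = 0.286), with every MI_stiff library above every MI library. Polr1a, a subunit of RNA polymerase I, differed by 0.18 ± 0.20 (edgeR adjusted p = 0.68), and its groups overlapped, as did those of Mrpl35.

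**Figure D4:**
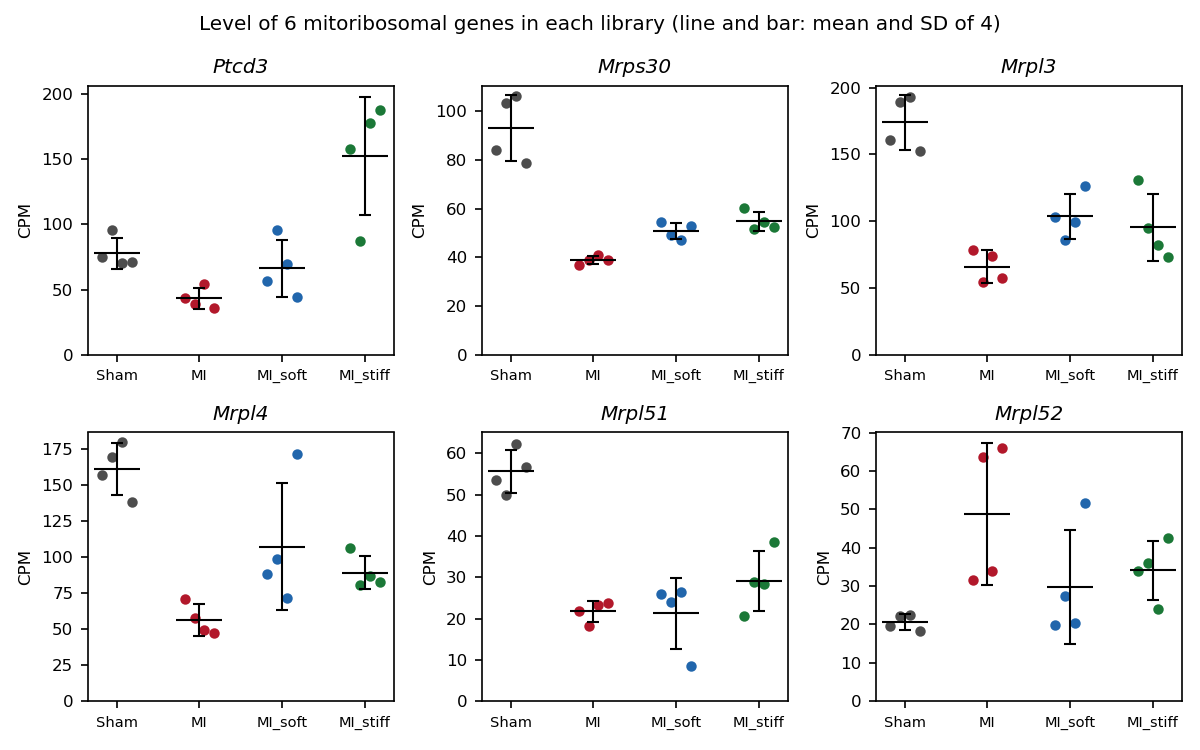
CPM of 6 mitoribosomal genes in each library by group (points), with the mean (line) and SD (bar) of the 4 libraries. Mrps30, Mrpl3, Mrpl4 and Mrpl51 are highest in Sham, Mrpl52 is highest in MI 2 and MI 4, and Ptcd3 is highest in MI_stiff 1, 3 and 4, at 157.8 to 188.3 CPM.

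The other members did not pass the test in MI_stiff against MI, although 19 had an unadjusted p under 0.05, as had 17% of all genes. Next in order were Mrpl55 (-1.19 ± 0.33, edgeR adjusted p = 0.0864) and Mrps5, a small-subunit protein with a bacterial counterpart (-0.69 ± 0.20, edgeR adjusted p = 0.0938). Mrps5 had 24.56, 19.77, 21.16 and 23.9 CPM in MI_stiff and 31.76, 45.63, 32.35 and 34.15 in MI, with the groups apart, whereas those of Mrpl55 overlapped and its difference without the low-detection libraries was -0.36 (edgeR adjusted p = 0.67). In all 3 members had MI_stiff wholly above MI and 8 wholly below, against 3.97% and 3.9% of all genes. The median was -0.11, against 0.01 for all genes, and short genes in general were lower: among the shortest 10% the median was -0.31 for all genes and -0.29 for the 28 members there. With the length offsets the members were at -0.09 and all genes at -0.11, and with limma on log2(TPM + 1) at 0.12 and 0.21. Without MI 1 there were 8 calls (7 lower), against 10.9% of all genes called in either direction. Without MI_soft 4 there were 7 (5 lower) against 4.62%, and DESeq2 made 5 (3 lower) against 5.13%.

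MI_stiff against MI_soft compared the gels directly. No member passed the test, against 0.0615% of all genes called higher and 0.0352% lower. Unadjusted, 12 members had a p under 0.05, as had 14.3% of all genes. DESeq2 called 2 (1 higher, 1 lower), limma-voom 0, limma-voom with library quality weights 3 (1 higher, 2 lower), and limma on log2 TPM 0. Ptcd3 again had the smallest p of the members, with a log2 difference of 1.20 ± 0.26 (edgeR adjusted p = 0.0678), and its groups overlapped through MI_stiff 2 and MI_soft 2. In 7 of 29 alternatives it passed, DESeq2 (0.00168) and leaving out the low-detection libraries (0.0373) among them. The 4 that leave out 1 library were those without MI 1, MI 3, MI_soft 2 or MI_stiff 2, each of which gave 1 call. Over all 29 the adjusted p ranged from 0.00168 to 0.221.

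Mrps7 and Mrps21, small-subunit proteins with bacterial counterparts, came next. Mrps7 had 19.13, 20.42, 29.6 and 23.23 CPM in MI_stiff and 33.75, 34.58, 31.37 and 72.83 in MI_soft (-0.90 ± 0.25, edgeR adjusted p = 0.138). Mrps21 had 13.01, 9.324, 13.43 and 13.22 in MI_stiff and 19.56, 19.99, 16.84 and 30.44 in MI_soft (-0.82 ± 0.27, edgeR adjusted p = 0.197). Both genes were lower in every MI_stiff library than in any MI_soft library, and MI_soft 4 was the highest for both. Without the low-detection libraries the differences were -0.52 and -0.61. Of all members 6 were wholly below and none wholly above, against 6.87% and 4.47% of all genes. The median was -0.22, against 0.01 for all genes, with 52 of 68 below 0, and without MI_soft 4 it was -0.03. Short genes in general were lower here too: all genes among the shortest 10% had a median of -0.27, as had the 28 members there, and in the second 10% it was -0.18 for all genes and -0.22 for the 19 members. With the length offsets the median was -0.09, against -0.03 for all genes, and 39 of the 68 were below 0.

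Both gel groups were also compared with Sham, and these comparisons share the Sham libraries with MI against Sham. In MI_soft 6 members fell and none was called higher by any tool run, against 9.7% lower and 16.4% higher among all genes, with a median of -0.24 (0.01 for all genes). The falls were Mrpl51 (-1.39 ± 0.28, edgeR adjusted p = 0.00171), Mrps30 (-0.87 ± 0.16, edgeR adjusted p = 0.000558), Mrps9 (-0.80 ± 0.19, edgeR adjusted p = 0.00569), Mrpl3, Mrpl19 and Mrps31. Mrpl51 in MI_soft had 25.99, 23.94, 26.42 and 8.529 CPM, and Mrps30 had 54.58, 49.25, 46.96 and 52.76, all below the Sham values given above. The number of calls depended on single libraries: it was 3 without Sham 2, 13 without MI 1, 12 without MI 3 and 16 without MI_soft 4, all lower, while the share of all genes called in either direction was 19.4%, 29.3%, 28.5% and 24%. Without the 4 low-detection libraries there were 28 calls, all lower, with 36.8% of all genes called in either direction (26% with all libraries). With the length offsets there were 23, again all lower, against 11% of all genes called lower.

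In MI_stiff 17 members fell and 1, Ptcd3, rose, against 8.44% lower and 12.7% higher among all genes. The median was -0.48, against 0.02 for all genes, and 62 of the 68 were below 0. The largest falls were those of Mrps2 (-1.13 ± 0.22, edgeR adjusted p = 0.00118), Mrpl49 (-1.05 ± 0.35, edgeR adjusted p = 0.0392) and Mrpl38, a mitochondria-specific protein of the large subunit (-1.03 ± 0.29, edgeR adjusted p = 0.0178). Mrps2 had 22.72, 20.74, 18.21 and 17.32 CPM in MI_stiff, below all Sham values, and Mrpl49 had 7.192, 9.646, 8.016 and 7.451 against 13.31 to 20.61 in Sham. The call for Mrpl49 was lost in 11 of 29 alternatives, among them leaving out any 1 Sham library or any 1 MI_stiff library, with adjusted p up to 0.196 by edgeR or limma. Ptcd3 rose by 0.97 ± 0.26 on the log2 scale (edgeR adjusted p = 0.0125), and without MI_stiff 4 its adjusted p was 0.0506.

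Of all members 31 had MI_stiff wholly below Sham and 1 wholly above, against 19.1% and 19.3% of all genes. With the length offsets in edgeR 22 members were called lower and 1 higher, against 10.4% and 11.8% of all genes, and 63 of the 68 were below 0 with a median of -0.56 (-0.04 for all genes). With limma on log2(TPM + 1), which differs in test, normalisation and length scaling together, 0 members were called lower and 2 higher, against 20% of all genes called in either direction, and the median was -0.21 where that of all genes was 0.22. Which of these differences moved the calls was not tested. Without Sham 3 or without MI_stiff 2 there were 10 calls, 9 of them lower, with 14.6% and 16.9% of all genes called in either direction. Without the low-detection libraries there were 35, of which 33 were lower, and the share of all genes called rose likewise, from 21.2% to 41.2%.

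The values of single members in the 3 comparisons against Sham, set side by side, were as follows. Mrps30 differed by -1.26 in MI, -0.87 in MI_soft and -0.77 in MI_stiff, and Mrpl3 by -1.40, -0.75 and -0.87. Mrpl4 differed by -1.51, -0.59 and -0.85, where the value in MI_soft was not called (edgeR adjusted p = 0.073). Ptcd3 differed by -0.85 in MI, -0.23 in MI_soft (not called, edgeR adjusted p = 0.523) and 0.97 in MI_stiff. These values rest on the same Sham libraries.

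Other genes of the mitochondrial translation system, and lists of genes related to it, were counted in the same fit. In MI against Sham 16.4% of all tested genes were called lower and 20.2% higher, and the counts below are to be read beside these shares. Of 20 assembly factors of the mitoribosome 6 fell and 1 rose, and of 15 translation factors 7 fell and 1 rose. Of 18 mitochondrial tRNA ligases, which charge tRNAs with amino acids, 12 fell and none rose, with a median of -1.28. Gatb, of the complex that makes glutaminyl-tRNA, led them with 2.265 ± 0.725 CPM in Sham and 0.0768 ± 0.154 in MI. It was thus a gene at low counts and near the floor in MI, and the part of detection in its fall was not tested. Of 23 import proteins, which bring mitoribosomal proteins into the organelle, 10 fell and 1 rose, and Hspa9, the import motor's chaperone, fell from 568.3 ± 35.9 to 128.9 ± 45.1 CPM. Of 21 genes for mitochondrial DNA upkeep and transcription 7 fell and none rose.

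The nuclear genes of the respiratory chain are not translated by the mitoribosome. Of these 78 genes 22 fell and 4 rose, against 16.4% lower and 20.2% higher among all tested genes. Ndufs1, of complex I, fell from 1326 ± 40.8 to 349.9 ± 125 CPM. Of the 13 messages that the mitoribosome itself translates, ND4L fell, ATP8 rose and 11 were not called, with a median of -0.30. ATP8 overlapped between the groups, with 88.02 ± 46.6 CPM in Sham and 428.3 ± 406 in MI. ATP8 and ND4L were the shortest of the 13, at log2 relative lengths of -8.84 and -5.505. The part of length in these 2 calls was not tested. Regulators of mitochondrial biogenesis fell in 6 of 10 cases and rose in 1, Myc, and the largest fall was that of Esrrg, an oestrogen-related receptor (-3.67 ± 1.01, edgeR adjusted p = 0.00932). Esrrg had 30.87 ± 5.56 CPM in Sham and 2.337 ± 3.39 in MI, so its MI libraries varied widely. The cytosolic ribosomal proteins, which build the ribosome outside the mitochondrion, went the other way: 59 of 75 rose and 1 fell, Rpl3l, a muscle form of Rpl3, and their median was 1.45. All genes among the shortest 10% had a median of 0.35 in this comparison, and this list was not divided by length. The 4 mitoribosome proteins whose names lie outside the rule (Dap3, Chchd1, Aurkaip1 and Gadd45gip1) had 0 calls in any comparison by edgeR and medians from Sham of 0.08 in MI, 0.06 in MI_soft and -0.31 in MI_stiff, and of the 3 lower-case names mrpl11 fell (-1.24 ± 0.30, edgeR adjusted p = 0.00419).

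In MI_stiff against MI the cytosolic ribosomal proteins had 10 calls lower and 0 higher of 75 (median -0.77), the mitochondrial tRNA ligases 1 higher and 0 lower of 18 (0.41), and the nuclear respiratory chain 1 higher and 0 lower of 78 (-0.27). Of all genes 0.694% were called lower and 0.492% higher there. In MI_soft against MI and in MI_stiff against MI_soft none of these lists had a call. Few genes were called there at all: 0.0264% lower in the first, and 0.0615% higher and 0.0352% lower in the second.

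**Figure D5:**
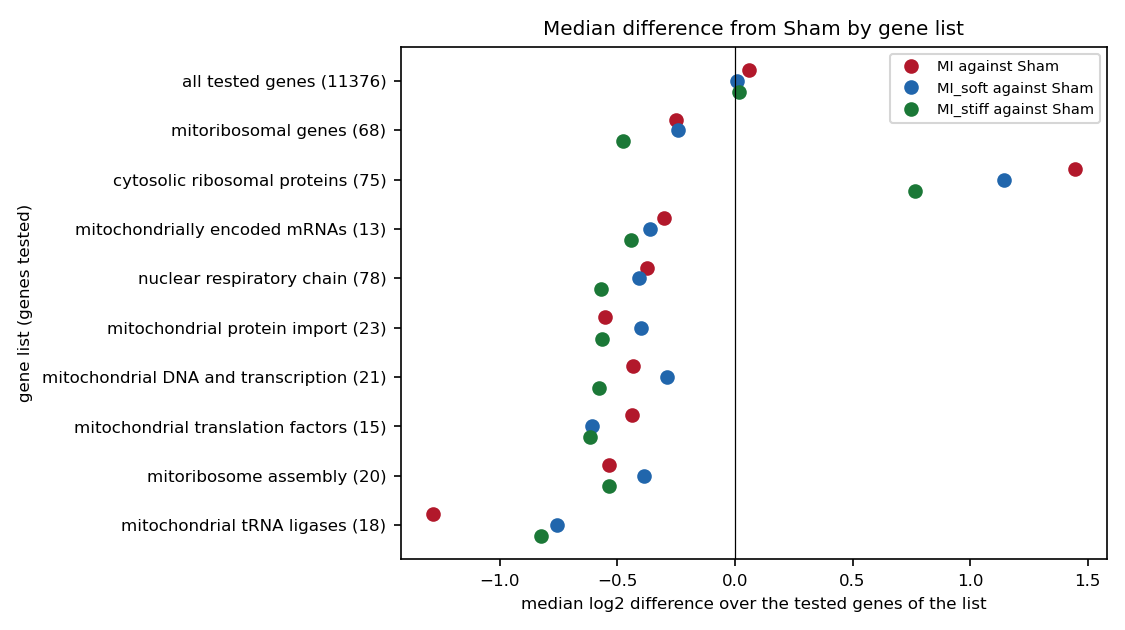
Median log2 difference from Sham over the tested genes of each list (number in brackets), for MI (red), MI_soft (blue) and MI_stiff (green). The mitoribosomal genes sit at -0.25, -0.24 and -0.48, the 7 other mitochondrial lists plotted lie to the left of 0 in all 3 comparisons, and the cytosolic ribosomal proteins lie between 0.76 and 1.45.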

How the data were processed

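The members, the gene lists and the comparisons were chosen with earlier results of these data known. Per the labels' protocols, RNA was isolated with DNase digestion, mRNA was purified, and libraries were made with a NEBNext Ultra kit and sequenced on an Illumina instrument. The authors deposited expected counts per gene and TPM for the same genes; per the submitters' processing notes they used STAR 2.7.3a, RSEM 1.3.1 and build rn7. The sources used here do not give the annotation or the strand setting. Rounding to whole numbers changed 0.785% of the expected counts. Mrpl36 and Mrpl41 have counts identical to those of another gene and are uncertain.

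Differences were tested by quasi-likelihood in edgeR 4.0.16 (R 4.3.3) with TMM factors, the default filter by expression, robust estimation and all 16 libraries in one fit, with Benjamini-Hochberg adjustment over 11376 genes and a threshold of 0.05. CPM use library totals multiplied by the TMM factors. Library totals of 10940685 to 14456186 counts gave a lowest member count of 10. Length was the median over libraries of counts divided by TPM, where TPM was at least 1 and the count at least 10 in at least 3 libraries. Length offsets were a lowess of log2 CPM on log2 length in each library. Other alternatives were DESeq2 1.42.0 (Wald test and size factors), limma-voom (limma 3.58.1) with and without library quality weights, limma on log2(TPM + 1) and log2(TPM + 0.1), no filter, 2 groups alone, a block for replicate number, library sizes without mitochondrially encoded genes, and leaving out each library or the 4 low-detection ones. The script was tested on simulated data.

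Genes were named by a rule. It took Ptcd3 and the 10 largest called falls and rises in MI against Sham. It took the called members and the 3 smallest p-values in each gel against MI and in the gels against each other. The 3 largest called changes of each gel against Sham were added. So were the 3 highest, lowest, longest and shortest members, and the largest called change of each list. The other members named were chosen after their values were seen. Replicate numbers were checked for pairing: in no comparison did every same-numbered pair deviate together by a correlation over 0.1, so the numbers were not taken as pairs. The form of the nuclear respiratory factor 1 motif was chosen after a looser form had been counted.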

Additional observations from a re-analysis of the deposited data

Results flagged for a closer look

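In 112 sets of 4 libraries (24 named genes and 4 summed measures, by group), 5 had 1 library whose gap to the nearest other, as a share of the range, exceeded Dixon's 95% critical value, and chance flags about 1 set in 20. MI_soft 4 gave 3 of these. Mrpl42 was at 85.54 CPM there, against 34.27 to 42.33 in the other MI_soft libraries. Mrps7, in the same library, was at 72.83, against 31.37 to 34.58. Mrpl51 was at 8.529, against 23.94 to 26.42, so this library was high for 2 of the genes and low for the third. In MI_stiff 2, Mrps21 was at 9.324, against 13.01 to 13.43, and in MI_stiff 1, Mrps9 was at 53.4, against 37.62 to 40.07. MI_soft 4 is 1 of the 4 low-detection libraries, and the part of detection in these values was not tested.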

How the results depend on the processing

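With the 29 alternatives, MI against Sham had 17 to 27 calls, not always of the same members (22 of the 27 with length offsets are among the 24 reported), and its median was below 0 in each: it moved furthest to -0.438 with length offsets and the replicate block and to -0.5669 without the low-detection libraries. MI_soft against MI had 2 calls with DESeq2 and 2 with quality weights, and its median turned to -0.03076 with quality weights, -0.05759 with length offsets and -0.033 with these and the block. MI_stiff against MI had 5 calls with DESeq2, and its median turned to 0.1222 and 0.1278 with TPM plus 1 and plus 0.1 and to 0.08019 without the low-detection libraries. MI_stiff against MI_soft had 2 calls with DESeq2, 3 with quality weights and 2 without the low-detection libraries.

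MI_soft against Sham had 12 calls with DESeq2's size factors, 14 with DESeq2, 11 with limma-voom, 32 with quality weights, 2 with each TPM scale, 14 with the 2 groups alone, 23 with length offsets, 16 with these and the block, and 28 without the low-detection libraries; its median was -0.4738 with length offsets and -0.4939 with the block added. MI_stiff against Sham had 39 calls with quality weights, 2 with each TPM scale (median -0.2094 and -0.2145), 34 with the 2 groups alone and 35 without the low-detection libraries. The share of all genes called in either direction moved too: in MI_soft against Sham from 26% to 53.8% with quality weights and 20.7% with TPM plus 1, and in MI_stiff against Sham from 21.2% to 45.6% with quality weights, 20% and 17.7% with TPM plus 1 and plus 0.1, 41.8% with the 2 groups alone and 41.2% without the low-detection libraries. The causes of these changes were not tested. The 3 lower-case names, added after seeing the data, brought the calls in MI against Sham to 25.

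Leaving out each library in turn gave 17 to 27 calls in MI against Sham (median -0.3643 to -0.1773), 0 to 6 in MI_soft against MI (-0.08227 to 0.1927), 1 to 8 in MI_stiff against MI (-0.231 to -3.867e-05), 0 to 1 in MI_stiff against MI_soft (-0.3287 to -0.0288), 3 to 16 in MI_soft against Sham (-0.3814 to -0.1824) and 10 to 24 in MI_stiff against Sham (-0.5656 to -0.381).

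The replicate numbers share only a number: same-numbered libraries correlated between -0.285 and 0.176 in their deviations from the group means. With the replicate block the calls were 23 in MI against Sham, 0 in MI_soft against MI, 1 in MI_stiff against MI, 0 in MI_stiff against MI_soft, 8 in MI_soft against Sham and 15 in MI_stiff against Sham. In the order of the comparisons, the medians with the block were -0.2689, 0.09482, -0.1172, -0.1941, -0.2663 and -0.4884. With 4 libraries a group, a member that missed the threshold is not shown to be alike between groups.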

Other observations

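The ratio of counts to TPM, which follows the effective transcript length that RSEM used in a library, was nearly constant for most members, and Mrps27 varied most, with log2 values that spanned 1.22 over the 16 libraries. They were -0.87 ± 0.05 in Sham and -1.20 ± 0.56 in MI, with -0.88 ± 0.08 for MI_soft and -1.13 ± 0.17 for MI_stiff (SD, n = 4), and the groups overlapped. Mrps10 was next, with a span of 0.50, and values of -2.62 ± 0.05, -2.70 ± 0.24, -2.73 ± 0.14 and -2.78 ± 0.20 in the same order of groups. For these 2 small-subunit genes CPM and TPM therefore differ also by the length used in each library. The TMM factors, which are in CPM and not in TPM, set the 2 measures apart for every member.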
